A study of Mus musculus with 6 samples.

Results

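The alpha and beta adrenergic receptors are the proteins through which fat cells sense noradrenaline and adrenaline. The 8 receptor genes Adra1a, Adra1b, Adra1d, Adra2a, Adra2b, Adra2c, Adrb1 and Adrb3 were followed among the 47069 genes counted in the inguinal subcutaneous white adipose tissue (SC-WAT) of young mice. They were chosen by name, on the measured counts of Egr1-/- against Egr1+/+ mice, with earlier results of that comparison known. Of the 8 genes, 6 passed a filter on low counts that left 17667 genes for testing. Adra2b and Adra2c did not pass it and are given by their counts.

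The samples came from 3 Egr1+/+ and 3 Egr1-/- female mice, 2 weeks old, with 1 library of ribosomal-RNA-depleted total RNA per mouse. All were untreated offspring of heterozygous intercrosses on a C57BL/6 J background. Egr1 encodes a zinc finger transcription factor, and the study asked what its loss does to subcutaneous fat. Egr1-/- is a germline knockout of all cells: a LacZ reporter was knocked into the leader of the gene and its reading frame was broken before the zinc fingers. Counts on Egr1 are therefore still possible in the mutants. The 6 mice came from 4 litters, and which pair were littermates is not stated.

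Noradrenaline reaches fat from sympathetic nerve endings. Beta receptors couple through the stimulatory G protein Gs to adenylyl cyclase, and the cyclic AMP made there activates protein kinase A, which drives lipolysis in white fat cells and heat production in brown and beige ones. Alpha-2 receptors couple to Gi and lower cyclic AMP, while alpha-1 receptors couple to Gq, which releases calcium through phospholipase C, and are known from brown fat and from vascular smooth muscle. Adrb3 is the receptor most typical of rodent fat cells.

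Total counts were between 29661984 and 42357981 per library, of which 50.0% to 66.3% lay on mitochondrially encoded genes. The count of Egr1 was 353, 241 and 711 in the controls against 103, 84 and 57 in the mutants, so the targeted gene was lower in every Egr1-/- mouse. All 7 adipocyte markers were detected in every mouse, each with at least 3407 counts. Skeletal muscle markers summed to between 91.5 and 3137 CPM, the count of a gene scaled to the library size, and were highest in Egr1+/+ replicate 2 (3137) and Egr1-/- replicate 3 (2501). These were the libraries that stood apart most by these markers, and the changes of the tested receptors without each of them are given below. Egr1-/- replicate 1 stood apart in other ways, with the highest total count and the 66.3% on mitochondrially encoded genes. The other libraries reached at most 57.6%.

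Promoter windows in RefSeq (GRCm38.p6), from 250 bases before to 50 bases after a transcript start, were found for 5 of the 8 receptors: Adra1b with 2 windows, and Adra2a, Adra2b, Adra2c and Adrb1 with 1 each. The other genes were Adra1a, Adra1d and Adrb3. A pair of windows is shown, for Adra1b, the receptor that was lower in the Egr1-/- mice, and for Adrb1, the beta receptor with a window. That of Adra1b lies on the minus strand at chr11:43836440-43836739, inside the annotated gene, and 71.3% of its bases are G or C. That of Adrb1 lies on the plus strand at chr19:56721867-56722166, with 72.3% G or C. Capitals mark the letters TGACG, the short form of the cyclic AMP response element.
Adra1b: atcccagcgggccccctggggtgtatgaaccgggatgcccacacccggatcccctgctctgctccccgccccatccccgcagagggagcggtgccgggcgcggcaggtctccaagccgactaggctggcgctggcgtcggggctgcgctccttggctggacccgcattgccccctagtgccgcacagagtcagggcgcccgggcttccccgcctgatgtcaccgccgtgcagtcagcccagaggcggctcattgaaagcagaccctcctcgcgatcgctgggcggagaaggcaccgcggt
Adrb1: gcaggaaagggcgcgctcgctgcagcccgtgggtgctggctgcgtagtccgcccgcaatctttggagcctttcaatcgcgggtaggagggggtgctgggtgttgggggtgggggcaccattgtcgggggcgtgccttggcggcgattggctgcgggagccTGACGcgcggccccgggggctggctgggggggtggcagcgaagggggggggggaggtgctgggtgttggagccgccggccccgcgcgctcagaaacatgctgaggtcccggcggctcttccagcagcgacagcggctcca

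Searches on both strands of the 6 receptor windows found no match to GCGTGGGCG or GCGGGGGCG, 2 forms of the EGR1 consensus, neither of which contains the other. They are present in 0.612% and 2.91% of the 32841 promoter windows of that length. The full cyclic AMP response element TGACGTCA was in none of the 6 windows and in 1.79% of all promoters. Its short form TGACG, which the full element contains, stood on the coding strand 90 bases before the start of Adrb1 and 69 bases before that of Adra2a. It was present in 20.8% of all promoters. These matches describe letters within 300 bases and nothing about binding.

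The levels of the receptors in fat covered a wide range. Levels of different genes were compared only per length, as CPM per kilobase (kb) of merged exons in GENCODE M21, after scaling by edgeR's TMM method. Over all 6 mice the mean level was 4.82 ± 1.20 CPM per kb for Adrb3, 2.11 ± 0.960 for Adra1a and 1.53 ± 0.409 for Adra1d (SD, n = 6). It was 0.921 ± 0.382 for Adrb1 and 0.394 ± 0.0794 for Adra2a. The remaining receptors had mean levels of 0.126 ± 0.0492 CPM per kb for Adra1b, 0.0616 ± 0.0393 for Adra2b and 0.0163 ± 0.0162 for Adra2c. Adrb3 thus had the highest mean, and the alpha-2 receptors were all low. By genotype, Adra1a and Adra1d were close in Egr1+/+ mice, at 1.27 ± 0.148 and 1.21 ± 0.180 CPM per kb, and farther apart in Egr1-/- mice, at 2.94 ± 0.448 and 1.85 ± 0.266 (SD, n = 3). Adrb3 was at 4.35 ± 1.33 CPM per kb in Egr1+/+ and 5.29 ± 1.09 in Egr1-/- mice. Among the 17667 tested genes, the level per kb of Adrb3 stood at the 75.7 percentile, that of Adra1a at 54.4 and that of Adra1b at 4.79.

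Neighbours in this order were compared within each mouse by an exact two-sided sign-flip permutation test on the difference in log2 level, adjusted over the 7 pairs. The order itself was taken from the same mice. Of the 7 pairs, 5 passed, each with the same direction in 6 of 6 mice and the smallest p-value that 6 mice allow (exact permutation p = 0.03125, adjusted p = 0.04375). Adrb3 exceeded Adra1a by 1.28 ± 0.620 (SD, n = 6) on the log2 scale, Adra1d exceeded Adrb1 by 0.80 ± 0.397, and Adrb1 exceeded Adra2a by 1.11 ± 0.755. Adra2a exceeded Adra1b by 1.64 ± 0.795, and Adra1b exceeded Adra2b by 1.10 ± 0.844. Adra1a and Adra1d were not separated per kb of merged exons: their log2 difference was 0.37 ± 0.381, with Adra1a above in 5 of 6 mice (adjusted exact permutation p = 0.09375). Adra2b and Adra2c were not separated either, with a log2 difference of 1.40 ± 1.10, in the same direction in 5 of 6 mice (adjusted exact permutation p = 0.0729). Adrb3 ranged from 3.44 to 6.34 CPM per kb and Adra1a from 1.11 to 3.24, so these ranges did not meet. Besides this pair, only the ranges of Adra2a and Adra1b were apart among the 7 pairs.

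The distance of Adra1a from its neighbours hinged on the length used, while its mean over all mice stayed below that of Adrb3 and above the others under each. Its merged exons cover 8.728 kb, spread over 6 annotated transcripts, while its longest transcript has 4.282 kb and its coding exons, merged over transcripts, 1.412 kb. Per kb of longest transcript the mean levels were 5.82 for Adrb3 and 4.29 for Adra1a, and Adrb3 was no longer separated from Adra1a (log2 difference 0.53, adjusted exact permutation p = 0.09375). Adra1a was then separated from Adra1d, by 1.39 on the log2 scale (adjusted exact permutation p = 0.04375). Per kb of coding length Adrb3 and Adra1a both had 13.0 CPM per kb. None of the pairs, still those of neighbours by merged exons, passed the test with coding length. Adra1a exceeded Adra1d there by 2.82 on the log2 scale, the widest gap of this pair under any length (adjusted exact permutation p = 0.0729). With 6 mice, a pair at the smallest p-value passes the adjustment only if enough other pairs reach it too. The lack of a pass therefore does not show that levels were alike. With coding length Adra1d also fell below Adrb1, by 0.29 on the log2 scale. In the Egr1+/+ mice Adrb3 was above Adra1a in every mouse under each length. In the Egr1-/- mice Adra1a was above Adrb3 in 0 of 3 mice per kb of merged exons, in 1 of 3 per kb of longest transcript and in 2 of 3 per kb of coding length. The counts do not tell which transcripts of a gene were present.

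**Figure D1:**
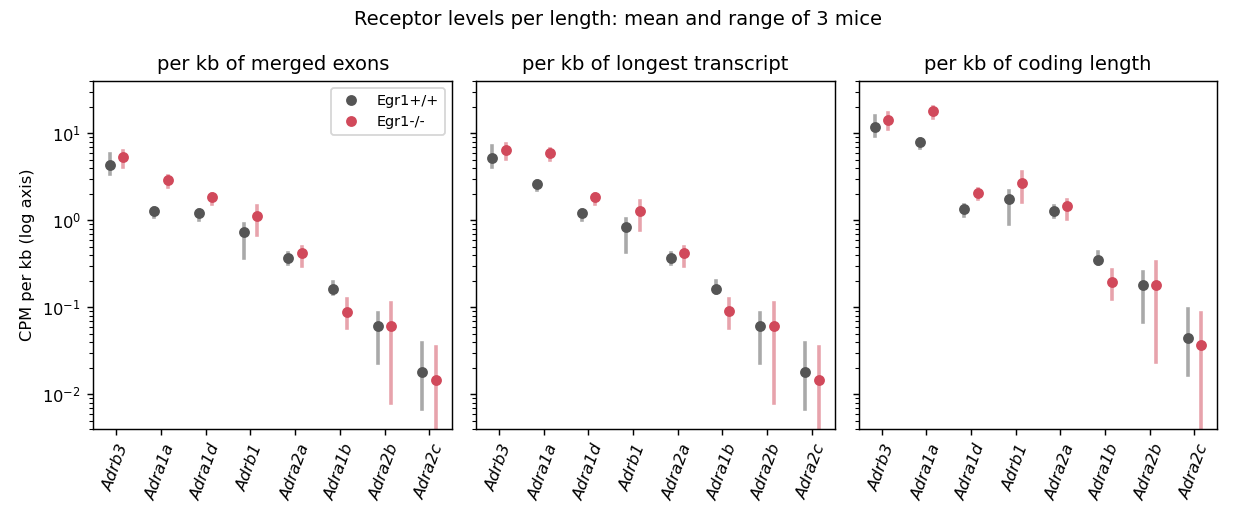
Receptor levels in CPM per kb on a log axis, for 3 measures of gene length, with points for the mean and lines for the range of the 3 mice of each genotype. Adrb3 is highest with merged exons (4.82 CPM per kb over all mice) and Adra1a reaches the same mean with coding length (13.0). The line of Adra2c in Egr1-/- mice runs off the axis because 1 mouse had no count.

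Between genotypes, the alpha-1 receptors were those without overlap, and not all lay in the same direction. Adra1a was higher in Egr1-/- mice by 1.21 ± 0.151 on the log2 scale (SE of the edgeR fit) and Adra1d by 0.62 ± 0.220, while Adra1b was lower, at -0.85 ± 0.455. The ranges of Egr1+/+ and Egr1-/- mice did not overlap for these 3 genes, and overlapped for the other 5. The family was chosen with this comparison in view, so its values are a description and carry no test. Among all tested genes, 8.15% had every Egr1-/- mouse above every Egr1+/+ mouse, as 2 of the receptors had, and 8.1% had every one below, as 1 receptor had. The fitted change was above 0 for 5 of 6 tested receptors and for 50.1% of all tested genes, and below 0 for 1 receptor and for 49.9% of all tested genes. Nothing is read from these counts. The median change was 0.44 over the 6 receptors and 0.0011 over all 17667 genes.

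Adra1a encodes the alpha-1A receptor, which couples to Gq, and lies at chr14:66635251-66771168 on the plus strand (GRCm38, as are all gene positions here). Its counts were 415, 349 and 416 in Egr1+/+ replicates 1 to 3, against 916, 656 and 876 in the Egr1-/- mice. Scaled for library size these were 12.1, 11.6 and 9.65 CPM against 27.5, 21.2 and 28.3 CPM. Every Egr1-/- mouse lay above every Egr1+/+ mouse, and the lowest mutant, replicate 2, stood well above the highest control. The means were 11.1 ± 1.29 and 25.7 ± 3.91 CPM (SD, n = 3), a 2.31-fold ratio. The change stood at the 99.6 percentile of all tested genes. Of the 6 tested receptors 1, Adra1a, had a log2 change of 1 or more in this fit, as did 0.725% of all tested genes. Adra1b reached -1.16 without Egr1-/- replicate 1 and -1.03 under total-count normalization. The spread between mice, with a coefficient of variation of 11.6% in Egr1+/+ and 15.2% in Egr1-/- mice, was wider than the 5.04% and 3.50% that counting alone would give. Without Egr1+/+ replicate 2 or Egr1-/- replicate 3, the libraries richest in skeletal muscle transcripts, the log2 change of Adra1a was 1.24 and 1.13.

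Adra1d encodes the alpha-1D receptor, known from the smooth muscle of arteries, and lies at chr2:131545850-131562283 on the minus strand with 2 exons. Counts of 85, 57 and 108 in Egr1+/+ mice stood against 128, 91 and 117 in Egr1-/- mice, or 2.47, 1.90 and 2.51 CPM against 3.84, 2.94 and 3.78 CPM. All mutants were above all controls after scaling, although the raw counts of the genotypes overlapped. The means were 2.29 ± 0.342 and 3.52 ± 0.506 CPM (SD, n = 3). Replicate 2 was the lowest mouse of each genotype. The log2 change was 0.50 without Egr1+/+ replicate 2 and 0.56 without Egr1-/- replicate 3. Its exons overlap those of the antisense gene Gm14285 by 147 bases. Gm14285 had 0 counts in 5 mice and 1 count in Egr1-/- replicate 2.

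Adra1b encodes the alpha-1B receptor, also coupled to Gq, and lies at chr11:43774606-43901210 on the minus strand. Few reads fell on it, with 17, 20 and 21 counts in Egr1+/+ against 14, 6 and 9 in Egr1-/- mice, or 0.495, 0.666 and 0.487 CPM against 0.420, 0.194 and 0.291 CPM. The mutants were all lower, but the highest mutant and the lowest control differed by only a few counts. The means were 0.549 ± 0.101 and 0.302 ± 0.114 CPM (SD, n = 3). At this depth the spread between mice (18.4% and 37.7% of the mean) was close to what counting alone gives (22.7% and 32.2%). The change was -1.16 without Egr1-/- replicate 1 and -0.61 without Egr1-/- replicate 2, so its size rests on single mice. It was -0.69 without Egr1+/+ replicate 2 and -0.82 without Egr1-/- replicate 3.

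**Figure D2:**
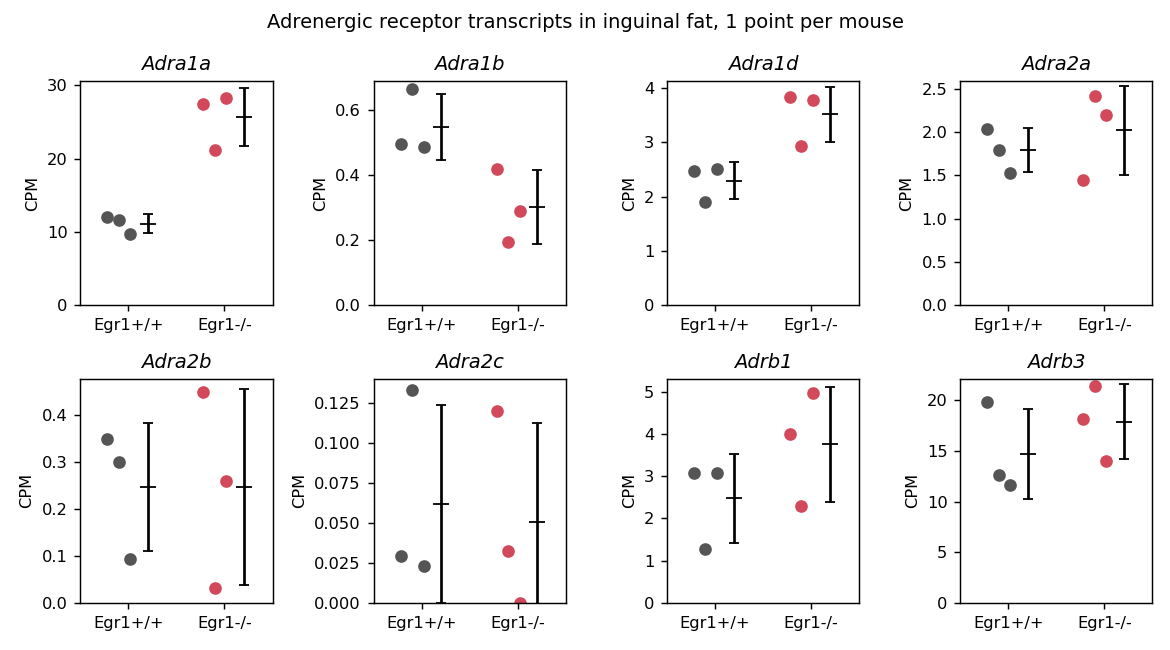
CPM of each of the 8 receptor genes in every mouse, with Egr1+/+ mice in grey and Egr1-/- mice in red, and the mean ± SD of 3 mice beside them. Each vertical axis starts at 0 and has its own scale, and lower bars of Adra2c that would pass below 0 are not drawn further. The genotypes are apart for Adra1a (9.65 to 12.1 against 21.2 to 28.3 CPM), Adra1b and Adra1d and overlap for the others.

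Among the beta receptors, Adrb3 encodes the beta-3 receptor of fat cells and lies at chr8:27225776-27250616 on the minus strand. Egr1+/+ mice had 681, 379 and 501 counts and Egr1-/- mice 605, 663 and 434, or 19.8, 12.6 and 11.6 CPM against 18.2, 21.4 and 14.0 CPM. The genotypes overlapped, with Egr1+/+ replicate 1 above 2 of the 3 mutants. The means were 14.7 ± 4.47 and 17.9 ± 3.69 CPM (SD, n = 3), and the log2 change was 0.28 ± 0.225 (SE). The coefficients of variation were 30.5% and 20.7%, and counting alone would give 4.38% and 4.20%. The change was 0.54 without Egr1+/+ replicate 1 and 0.43 without Egr1-/- replicate 3, but 0.19 without Egr1+/+ replicate 2, 0.14 without Egr1-/- replicate 2 and 0.13 without Egr1+/+ replicate 3. The exons of Adrb3 overlap those of the antisense gene Gm45470 by 839 bases, and Gm45470 is not among the counted genes. The strand setting of the counting is not given in the sources used here, so antisense reads in these 839 bases may be counted for Adrb3. Reads in the overlap of Adra1d and Gm14285 may be shared.

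Adrb1 encodes the beta-1 receptor, best known from the heart and present in fat cells and their precursors, and lies at chr19:56722199-56733113 on the plus strand. Egr1+/+ mice had 106, 38 and 133 counts and Egr1-/- mice 133, 71 and 154, or 3.09, 1.27 and 3.09 CPM against 3.99, 2.29 and 4.98 CPM. Replicate 2 was low in both genotypes, and the lowest mutant fell between the controls. The means were 2.48 ± 1.05 and 3.75 ± 1.36 CPM (SD, n = 3), and the log2 change was 0.59 ± 0.381 (SE). Its coefficients of variation were 42.4% in Egr1+/+ and 36.2% in Egr1-/- mice, against 10.4% and 9.15% from counting. Without Egr1+/+ replicate 2 the log2 change was 0.28, and without Egr1-/- replicate 3 it was 0.34. Adrb3 exceeded Adrb1 in every mouse, by 2.82 to 9.99 times per kb of merged exons.

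Of the alpha-2 receptors, which couple to Gi and restrain lipolysis, only Adra2a passed the filter. Adra2a lies at chr19:54044151-54048982 on the plus strand and was counted 70, 54 and 66 times in Egr1+/+ and 48, 75 and 68 times in Egr1-/- mice. The genotypes overlapped at 2.04, 1.80 and 1.53 CPM against 1.44, 2.42 and 2.20 CPM, with the lowest value in a mutant. The means were 1.79 ± 0.253 and 2.02 ± 0.514 CPM (SD, n = 3), and the log2 change was 0.18 ± 0.278 (SE). It was 0.37 without Egr1-/- replicate 1, 0.27 without Egr1+/+ replicate 1, 0.11 without Egr1-/- replicate 3, 0.07 without Egr1+/+ replicate 3 and 0.03 without Egr1-/- replicate 2, while it stayed at 0.18 without Egr1+/+ replicate 2.

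Adra2b, a gene with 1 exon at chr2:127363208-127367221 on the plus strand, was counted 12, 9 and 4 times in Egr1+/+ and 15, 1 and 8 times in Egr1-/- mice. Adra2c, also of 1 exon, at chr5:35278319-35281763 on the plus strand, had 1, 4 and 1 counts against 4, 1 and 0. Both genes overlapped between genotypes. The 0 in Egr1-/- replicate 3 allows up to 3 counts, or 0.0970 CPM, for counting error alone. No difference between genotypes was detectable for either gene at this depth.

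**Figure D3:**
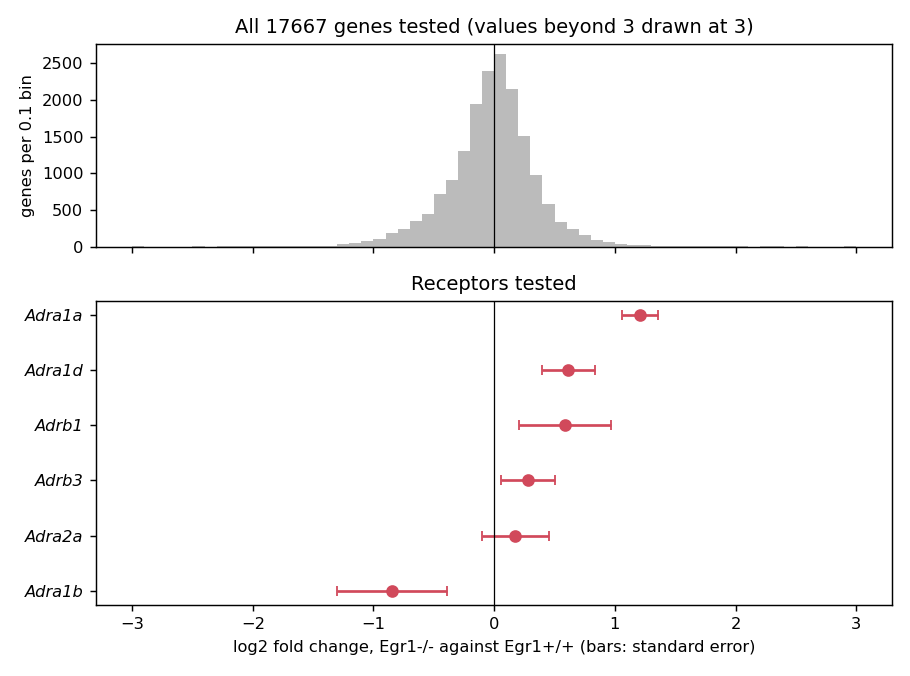
Log2 fold changes of Egr1-/- against Egr1+/+ mice, with all 17667 tested genes in the upper panel as a histogram and the 6 tested receptors below with their standard errors. Adra1a lies at 1.21, Adra1d, Adrb1, Adrb3 and Adra2a lie between 0.62 and 0.18, and Adra1b lies at -0.85.

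The receptor repertoire of a mouse can also be given as shares of the summed level per kb of merged exons. That sum was 10.1, 7.12 and 7.27 CPM per kb in Egr1+/+ mice, against 12.3, 11.6 and 11.5 in Egr1-/- mice. All mutants were thus higher, with means of 8.18 ± 1.70 and 11.8 ± 0.455 CPM per kb (SD, n = 3). This separation rests on the TMM factors, which were 0.787 for Egr1-/- replicate 1 and 1.02 for Egr1+/+ replicate 1. With total counts instead, the sum of Egr1-/- replicate 1 falls below that of Egr1+/+ replicate 1, so the genotypes overlap. The Adrb3 share was 57.9%, 52.5% and 47.3% in controls against 43.7%, 54.8% and 36.2% in mutants, and these overlapped. Adra1a held 13.7%, 18.7% and 15.2% against 25.6%, 21.0% and 28.3%, and these did not. The share of Adra1d was 15.0% ± 2.78 in Egr1+/+ and 15.7% ± 2.09 in Egr1-/- mice (SD, n = 3), and that of Adrb1 was 8.93% ± 3.65 and 9.43% ± 3.49.

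By class, again per kb of merged exons, the beta receptors made up 61.5% ± 4.82 of the sum in Egr1+/+ and 54.4% ± 5.87 in Egr1-/- mice (SD, n = 3). Alpha-1 receptors made up 32.9% ± 4.30 and 41.4% ± 5.95. Alpha-2 receptors made up 5.56% ± 1.10 in Egr1+/+ mice, all above the 4.21% ± 0.512 of the Egr1-/- mice, although the CPM of each alpha-2 gene overlapped. The count of Adra1a over that of Adrb3, a ratio that needs no scaling between libraries, was 0.609, 0.921 and 0.830 in Egr1+/+ mice, against 1.51, 0.989 and 2.02 in Egr1-/- mice. It was higher in each mutant, by a small margin in replicate 2. All these ratios come from the genotype comparison by which the family was chosen and are given without a test.

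**Figure D4:**
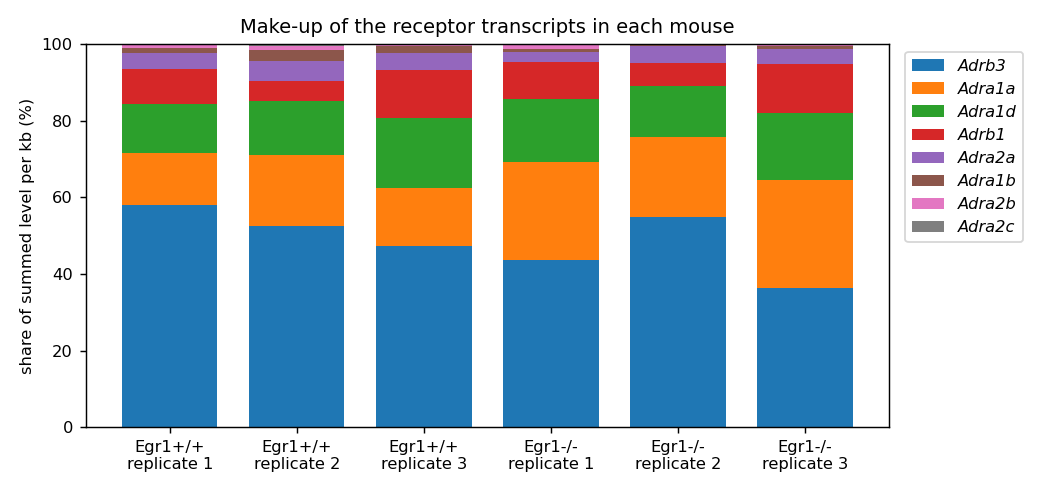
Share of each receptor in the summed level per kb of merged exons, in percent, 1 bar per mouse. Adrb3 takes 36.2% to 57.9% in every mouse, and Adra1a takes 13.7% to 18.7% in Egr1+/+ and 21.0% to 28.3% in Egr1-/- mice.

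Genes that act around the receptors were described from 11 lists with 92 genes, of which 85 were tested. By edgeR's quasi-likelihood test none of them passed 0.05 after adjustment over all genes (lowest adjusted p = 0.151), and 0.017% of all tested genes did. Before adjustment 22 list genes had a p under 0.05, 15 higher and 7 lower in Egr1-/- mice, as 10.7% of all tested genes had. DESeq2 called 7, where it called 2.89% of the genes for which it gave an adjusted p. These were Gnas, Grk3, Ucp1, Dio2 and Ppargc1a, with higher values, and Gnai1 and Ffar2, with lower ones, of which Dio2, Gnai1 and Ffar2 were named after their values were seen. The log2 changes of the 85 genes had a median of 0.0030, with 43 above 0 and 42 below, against 50.1% and 49.9% of all tested genes. Every mutant lay above every control for 16 of the 85 and below for 6, against 8.15% and 8.1% of all tested genes. Nothing is read from the counts by list below.

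On the side of the transmitter, Th, the enzyme that starts noradrenaline synthesis, and Pnmt, which turns noradrenaline into adrenaline, had 0 counts in every mouse. Dbh, which makes noradrenaline, had 0 counts in 4 mice and 2 and 3 in the others. Slc18a2, the vesicle transporter for monoamines, had 1.77 ± 0.572 CPM in Egr1+/+ and 1.23 ± 0.598 CPM in Egr1-/- mice, and Ddc had 1.31 ± 0.321 and 1.17 ± 0.153 CPM (SD, n = 3). The 3 tested genes of this list lay below 0, with a median of -0.27, and their genotypes overlapped. Maob, a monoamine oxidase, was at 20.6 ± 2.51 and 22.1 ± 1.27 CPM, with overlapping genotypes. Maoa, the other monoamine oxidase, was lower in every mutant, at 18.9 ± 0.866 and 13.4 ± 1.79 CPM. Its log2 change was -0.50 ± 0.129 (SE, adjusted p = 0.227 in edgeR and 0.0670 in DESeq2), and it was named after its values were seen. Of the 5 tested genes for noradrenaline uptake and breakdown, 3 lay above 0 and 2 below.

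No G protein subunit passed the edgeR threshold. Gnas, which encodes Gs alpha and serves the beta receptors, was at 405, 326 and 341 CPM in the Egr1+/+ mice and 553, 418 and 566 CPM in the Egr1-/- mice, with every mutant above every control. Its log2 change was 0.52 ± 0.160 (SE, adjusted p = 0.295 in edgeR and 0.0393 in DESeq2). Gnai1, a Gi subunit of the kind that serves the alpha-2 receptors, was lower in every mutant, with a mean of 63.7 CPM against 92.0 CPM, with a log2 change of -0.53 ± 0.142 (adjusted p = 0.238 in edgeR and 0.0272 in DESeq2). Gnai2, another Gi subunit, had a log2 change of -0.30 ± 0.129 with overlapping genotypes. Over the 9 subunits 2 lay above 0 and 7 below, with a median of -0.17.

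Adenylyl cyclases varied around 0, with a median of 0.0038 over 8 genes. So did the list of protein kinase A subunits and inhibitors, with -0.05 over 9. Adcy6 had a log2 change of 0.15 ± 0.111 (SE) and Adcy7 of 0.04 ± 0.183. Prkar2b, the main regulatory subunit of protein kinase A in fat, had 464 ± 27.3 CPM in Egr1+/+ and 603 ± 90.6 CPM in Egr1-/- mice (SD, n = 3), without overlap (log2 change 0.38 ± 0.148, edgeR adjusted p = 0.407). Prkar1a had a log2 change of 0.17 ± 0.113. Among the phosphodiesterases, which degrade cyclic AMP, Pde3b and Pde7a had changes of 0.10 ± 0.135 and 0.06 ± 0.175, and the 10 genes had a median of 0.10.

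In the Gq arm, which serves the alpha-1 receptors, the inositol trisphosphate receptors Itpr2 and Itpr1 lay higher in every Egr1-/- mouse. Itpr2 was at 197, 152 and 173 CPM against 215, 216 and 259 CPM, a log2 change of 0.40 ± 0.143 (edgeR adjusted p = 0.352). Itpr1 was at 135, 117 and 139 CPM against 151, 159 and 163 CPM, a change of 0.28 ± 0.117 (edgeR adjusted p = 0.449). Neither passed the threshold by edgeR or DESeq2. Of the 10 genes of this list 7 lay above 0, with a median of 0.16.

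Grk3, a kinase that phosphorylates active receptors, was at 39.6, 29.7 and 34.0 CPM in the Egr1+/+ mice and 56.6, 46.6 and 68.2 CPM in the Egr1-/- mice. The genotypes did not overlap, and the log2 change was 0.73 ± 0.165 (adjusted p = 0.193 in edgeR and 0.00459 in DESeq2). The other 6 kinases and arrestins lay between -0.26 and 0.28, among them Arrb1 at -0.13 ± 0.148. Of the proteins of lipolysis, Lipe, the hormone-sensitive lipase, was at 195, 211 and 214 CPM against 281, 226 and 287 CPM (log2 change 0.36 ± 0.133, edgeR adjusted p = 0.378), without overlap. Plin1, the perilipin that guards the lipid droplet, had a change of 0.11 ± 0.178.

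The 6 transcripts known to be induced by cyclic AMP in fat all lay above 0, as 50.1% of all tested genes did, with a median of 0.78. The study had already reported Ucp1, Dio2 and Ppargc1a as raised in its RNA-seq, so this list is not independent of these data. The Nr4a genes of the list, named after their values were seen, lay at 0.33 to 0.49. Signalling by cyclic AMP was not tested. Ucp1, the uncoupling protein, changed by 1.22 ± 0.207 (adjusted p = 0.151 in edgeR and 2.9e-07 in DESeq2) and the coactivator Ppargc1a by 1.08 ± 0.244 (0.193 and 0.000924). Of the 13 tested receptors of other ligands that act on adenylyl cyclase, 3 lay above 0 and 10 below, with a median of -0.18. Adora1, a receptor for adenosine that couples to Gi, was higher in every mutant, at 45.9, 36.8 and 43.4 CPM against 61.2, 50.0 and 65.7 CPM (log2 change 0.49 ± 0.140, edgeR adjusted p = 0.260). Tshr, the receptor of thyrotropin, had a log2 change of -0.64 ± 0.215 with overlapping genotypes (edgeR adjusted p = 0.325).

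**Figure D5:**
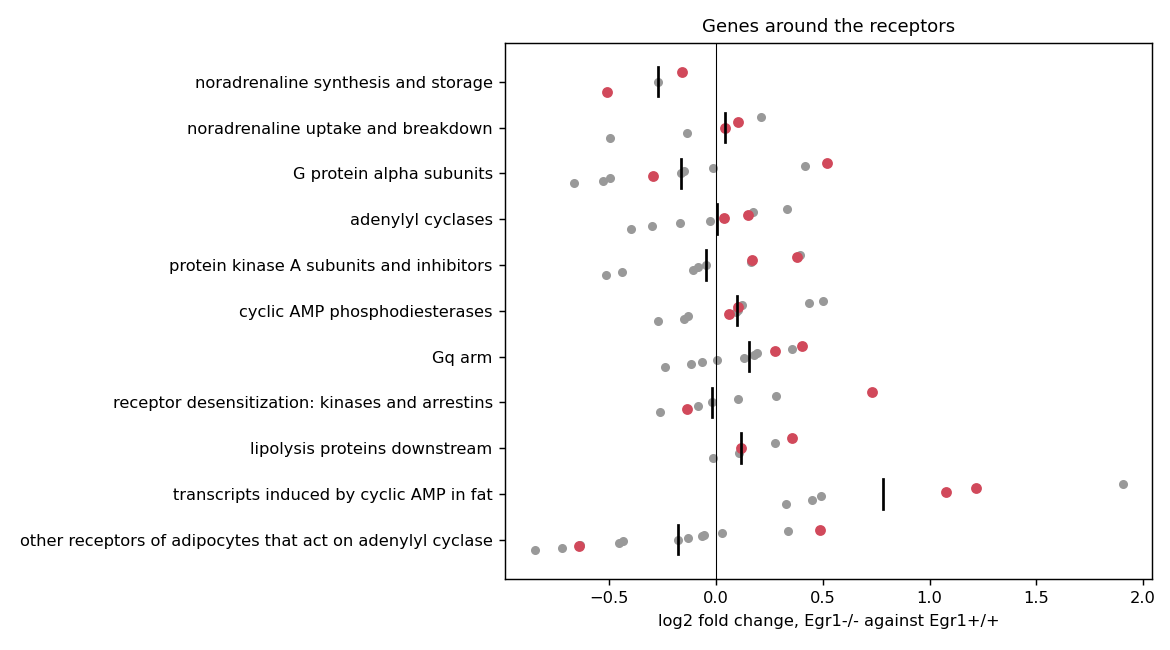
Log2 fold changes of Egr1-/- against Egr1+/+ mice for the 85 tested genes of the 11 lists around the receptors, 1 point per gene. The 2 most abundant genes of each list are red, and a short black line marks the median of a list. Only the list of transcripts induced by cyclic AMP lies wholly above 0 (median 0.78). It holds Ucp1, Dio2 and Ppargc1a, which the study had reported as raised.

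RNA of whole fat pads cannot tell fewer cells of a type from less RNA per cell, so the markers of the cells that may carry these receptors are given beside them. The brown and beige adipocyte markers summed to 485 to 636 CPM in Egr1+/+ and 871 to 1459 CPM in Egr1-/- mice, without overlap, and 5 of 5 tested markers lay above 0. Among them are Ucp1, Cidea, Cox8b and Dio2, which the study had reported as raised in its RNA-seq, so this list repeats that result. Adipocyte markers summed to 5852 to 6259 against 4717 to 5654 CPM, also without overlap, with 2 of 7 genes above 0. Those of smooth muscle and mural cells, which also bear alpha-1 receptors, summed to 427 to 634 against 363 to 565 CPM and overlapped, with 1 of 7 above 0. Stromal progenitor markers summed to 779 to 839 against 421 to 579 CPM and macrophage markers to 215 to 312 against 148 to 211 CPM, in both lists with 6 of 6 genes below 0 and no overlap. Schwann and sympathetic neuron markers summed to 155 to 244 against 99.7 to 132 CPM without overlap, with 4 of 4 tested genes below 0, and the neuronal markers Th and Dbh were at or near 0. The sums of the endothelial, lymphocyte, mammary epithelial and skeletal muscle lists overlapped between genotypes. Of all tested genes, 50.1% lay above 0 and 49.9% below, and single genes had every mutant above every control in 8.15% and below in 8.1%. No marker passed an adjusted p of 0.05 in edgeR. The part of these cell types in the receptor differences was not tested.

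The genes whose log2 CPM ran most like that of each receptor over the 6 mice were sought among 7260 genes with a mean of at least 10 CPM. The points share their libraries and genotypes, and so many candidates over 6 mice give high values readily, so the correlations are a description. Closest to Adra1a were Slc4a4, Mecr and Lmtk2 (Pearson r = 0.998, 0.997 and 0.996), and 44 genes had r of at least 0.95. Closest to Adrb3 were Dusp11, Prkx and Vps33b (0.960, 0.943 and 0.938), with 1 gene at or above 0.95. Adra1d ran closest to Tmem94, Eif2d and Ntrk3 (0.990, 0.987 and 0.986), and Adrb1 to Trmt2b, Tmem79 and Ncoa1 (0.990, 0.987 and 0.987). For Adra1b these were Cyp4v3, Fam129b and Tmod2 (0.997, 0.994 and 0.987), and for Adra2a Casp2, Spata5 and Rcbtb1 (0.989, 0.978 and 0.977). No gene was named for more than 1 receptor.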

How the data were processed

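Inguinal fat RNA of 6 mice was measured by RNA-seq. The authors mapped reads to GRCm38 with TopHat2 and Bowtie2, assigned them to GENCODE genes with featureCounts, and deposited raw counts per gene without normalization. The labels and the study's methods differ on read layout, and neither gives the strand or multimapping setting. Groups came from the sample labels, 3 separate mice per genotype. Of 47069 identifiers, 46488 matched GENCODE M21 without version. For 4 of the 8 receptors the identifier version was the same, so lengths may differ from those counted. Other members of the family are not analysed here.

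Counts were fitted in R 4.3.3 with edgeR 4.0.16 (filterByExpr, TMM, quasi-likelihood test, no covariate), with Benjamini-Hochberg adjustment over all tested genes at 0.05. DESeq2 1.42.0 and limma 3.58.1 served as alternatives, and sign-flip tests used scipy 1.17.1 in Python 3.11.15 with a pseudocount of 0.01 CPM per kb. Log2 CPM used a prior count of 2. The scripts were tested on simulated data. Named genes are the 8 receptors, Egr1, genes overlapping a receptor, the 2 most abundant tested genes of each list and any past the threshold, and the 3 genes most like each receptor; 1 gene named by this rule is not reported here. Members, lists and motifs were chosen with earlier results of these data known. Alternatives were other normalizations, filters, tools, lengths and pseudocounts, a replicate block, and leaving out each mouse.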

Additional observations from a re-analysis of the deposited data

How the results depend on the processing

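All 15 alternatives of the genotype fit kept the direction of each tested receptor, with log2 changes of 1.06 to 1.33 for Adra1a, 0.45 to 0.73 for Adra1d, 0.28 to 0.85 for Adrb1, 0.13 to 0.54 for Adrb3 and 0.03 to 0.37 for Adra2a, and of -1.16 to -0.61 for Adra1b in the 14 that kept this gene. Total-count normalization moved the median of all genes by -0.15. The number of genes past the adjusted threshold was 3, with 3 under RLE factors or without mitochondrially encoded genes, 0 under upper-quartile factors or a stricter filter, 1 with limma-voom, 79 with total counts (12 higher and 67 lower), 372 with DESeq2 (130 and 242), 552 with no filter (243 and 309) and 0 to 59 when each mouse was left out, the 59 without Egr1-/- replicate 1. Unadjusted p-values under 0.05 numbered 1884 by edgeR, 1902 under upper-quartile factors and 1771 under the stricter filter. Genes of the receptor pathway lists past the adjusted threshold numbered 0, and 2 with total counts (Dio2 and Ucp1), 7 with DESeq2 and 0 to 0 over left-out mice. With no filter there were 7 (Dio2, Ffar2, Grk3, Ppargc1a, Ptger3, Tshr and Ucp1). Of these, Dio2, Ffar2 and Ptger3 were named after their values were seen. The cause of these differences in number was not tested. Without Egr1-/- replicate 1, the library with the most mitochondrial counts, the log2 changes were 1.16 for Adra1a, 0.55 for Adra1d, 0.55 for Adrb1 and 0.27 for Adrb3. They were 0.37 for Adra2a and -1.16 for Adra1b. Of the 6 tested receptors, 5 were higher in Egr1-/- mice, and 5 to 6 when each mouse was left out. In some of the latter fits 7 receptors passed the filter, and none of the 6 changed direction.

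Of the 7 pairs, neighbours by merged exons, 5 passed, but 0 with coding length, under which the log2 difference of Adra1d over Adrb1 was -0.29. Leaving out a mouse gave 0 to 0, because 5 mice cannot give an exact permutation p below 0.0625. The Adrb3 share in Egr1+/+ mice was 52.6%, with 47.1% per coding length and 49.9% to 55.2% over left-out mice.

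The replicate numbers were checked for pairing. Deviations of same-numbered mice correlated at -0.0888, 0.106 and -0.126 for replicates 1, 2 and 3. Among same-numbered mice, only those of replicate 2 correlated best with each other. Egr1+/+ replicate 1 and Egr1-/- replicate 3 were also each other's best match, at 0.233, the highest value. So were Egr1+/+ replicate 3 and Egr1-/- replicate 1, at 0.0785. With 3 mice per genotype, such values cannot decide whether any pair shared a litter or a batch. With the replicate block 0 genes passed, and the log2 changes were 1.20 for Adra1a, -0.87 for Adra1b, 0.62 for Adra1d, 0.16 for Adra2a, 0.63 for Adrb1 and 0.30 for Adrb3. Depth limits Adra1b, Adra2b and Adra2c, where counting error is as wide as the spread between mice or no test was made.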
